A study of Mus musculus with 26 samples.

Results

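The ceramides of the epidermis were studied here through the transcripts of 10 genes that build, modify, transport or degrade them, namely *Elovl1*, *Elovl4*, *Cyp4f39*, *Cers3*, *Alox12b*, *Aloxe3*, *Sdr9c7*, *Ugcg*, *Abca12* and *Acer1*. They were found by symbol among the 56738 gene symbols of the count table, and all 10 were present. All 10 also passed the filter on low counts, which left 16893 genes for testing. Counts came from bulk RNA sequencing of keratinocytes in primary culture, isolated from the skin of C57BL/6NJ mice aged 2 days and grown for 4 days at 0.06 mM calcium. Cells of 5 WT mice and 8 KO mice were left untreated (basal) or treated for 24 h with 20 ng/ml of IL17A plus 20 ng/ml of TNFα, the cytokines of the experiment, so that each of the 13 mice gave 2 libraries, each from pooled wells of that animal. KO mice carry a CRISPR deletion of exon 3 of *Pla2g4d* (allele em1(IMPC)J) in all cells and were bred as homozygotes after backcrossing, and WT mice are not stated to be their littermates. Total counts per library lay between 42072745 and 78102858. At this depth counting error was small beside the spread between mice.

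The water barrier of skin rests on ceramides with very long acyl chains. ELOVL1 and ELOVL4 elongate fatty acids, the cytochrome P450 encoded by *Cyp4f39* hydroxylates the far (omega) end of the chain, and ceramide synthase 3 (*Cers3*) joins the chain to a sphingoid base. The glucosyltransferase UGCG adds glucose, the transporter ABCA12 loads the lipid into lamellar bodies, and the lipoxygenases ALOX12B and ALOXE3 together with the dehydrogenase SDR9C7 oxidize the linoleate of acylceramides before they are bound to the cornified envelope. ACER1 is a ceramidase of differentiated keratinocytes, which releases the sphingoid base again.

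The targeted gene, *Pla2g4d*, was examined first. Levels are given as CPM, counts scaled to a common library size after TMM normalization. *Pla2g4d* had 1.22, 4.41, 3.14, 3.34 and 4.63 CPM in the basal libraries of WT mice 1 to 5, and 28.6, 65.2, 47.1, 57.2 and 62.9 CPM in those with cytokines. In KO cells its lowest, median and highest values were 1.15, 2.1 and 2.98 CPM under basal conditions and 29.2, 36.2 and 59.2 CPM with cytokines (n = 8). The genotypes overlapped in both conditions, and WT mouse 1 was lowest among WT mice in both. *Pla2g4d* was called lower in basal KO cells (log2 fold change -0.70, SE 0.26, adjusted p = 0.0935 by edgeR) and not with cytokines (-0.45, SE 0.23, adjusted p = 0.345 by edgeR). The basal call was kept without WT mouse 1, KO mouse 7 or KO mouse 8. The adjusted p by edgeR was over 0.1 without WT mouse 2 (0.256), 3 (0.138), 4 (0.168) or 5 (0.274) or KO mouse 1 (0.15), 2 (0.173), 3 (0.169), 4 (0.15), 5 (0.117) or 6 (0.102). With cytokines it was called lower without WT mouse 1 (-0.60, adjusted p = 0.0357 by edgeR). Reads of every exon enter this count, those outside the deletion too, so it is no check on the deletion.

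Levels of different genes were compared as CPM per kb of annotated exon. In basal WT cells *Elovl4* was highest with 78.5 ± 19.4 CPM per kb (SD, n = 5), followed by *Cers3* with 43.8 ± 6.54 CPM per kb, and the libraries of these neighbours in the order did not overlap. *Abca12* (25 ± 3.68 CPM per kb), *Sdr9c7* (22.3 ± 7.12), *Elovl1* (19 ± 2.45) and *Ugcg* (16.6 ± 3.56) formed a middle group in which each gene overlapped the next. *Cyp4f39* (9.22 ± 1.37), *Acer1* (9 ± 2.92), *Alox12b* (6.99 ± 2.29) and *Aloxe3* (6.18 ± 1.63) were lowest, again with overlap between neighbours, and did not overlap *Ugcg* at the upper end. With cytokines the order at the lower end was another one. In WT cells *Alox12b* then reached 15.8 ± 3.41 CPM per kb and *Cyp4f39*, at 5.07 ± 1.11 CPM per kb, and *Acer1*, at 6.46 ± 1.25 CPM per kb, were lowest. In KO cells the lowest were *Cyp4f39*, at 4.22 ± 0.614 CPM per kb, and *Acer1*, at 3.88 ± 1.31 CPM per kb (SD, n = 8), and in both genotypes the libraries of this pair overlapped. The order depends on the length used. By the longest transcript, in basal WT cells, *Ugcg* (21.6 CPM per kb) was above *Elovl1* (20.5) and *Aloxe3* (8.44) above *Alox12b* (7.48). With cytokines *Abca12* had 52.8 CPM per kb in WT and 47.9 CPM per kb in KO cells, above *Cers3* with 46.4 and 42 CPM per kb. In basal WT cells *Abca12* had 40.5 and *Cers3* 43.9 CPM per kb by this length.

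**Figure D1:**
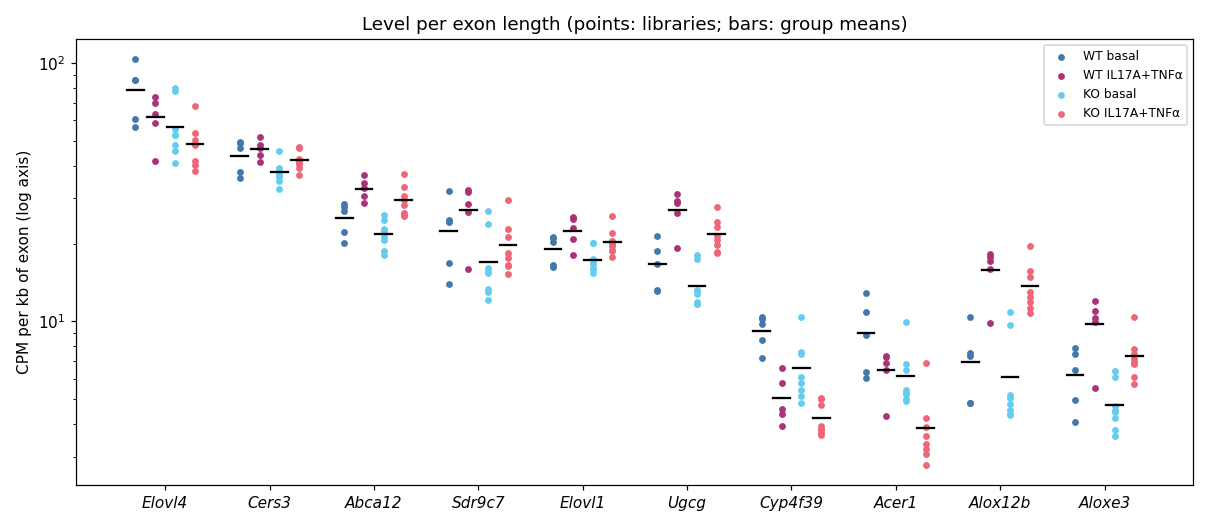
CPM per kb of exon (log axis) of the 10 genes in each library (points) with group means (bars), ordered by the mean in basal WT cells (n = 5 WT and 8 KO mice, each basal and with IL17A and TNFα). *Elovl4* and *Cers3* lie at the top in all 4 groups by this length, and *Alox12b* moves from 6.99 to 15.8 CPM per kb in WT cells with cytokines.

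The first comparison asked how the cytokines of psoriatic inflammation act on these genes in WT cells. *Alox12b*, *Aloxe3* and *Ugcg* rose and *Cyp4f39* fell, and the other 6 genes did not pass both thresholds of the test. A gene was called when edgeR gave an adjusted p under 0.1 and the fold change over 1.5. By this rule 3 of the 10 genes were higher, against 8.65% of all genes tested, and 1 was lower, against 5.26%. The median log2 fold change of the 10 genes was 0.26, beside 0.01 over all genes.

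*Alox12b* had 16.4, 35.1, 16.4, 24.9 and 25.7 CPM in the basal libraries of WT mice 1 to 5 and 33.4, 60, 54.2, 58.1 and 61.7 CPM in their libraries with cytokines. WT mouse 1 was lowest with cytokines and overlapped the basal range, while the other 4 libraries lay above every basal library. The log2 fold change was 1.17 (SE 0.25, adjusted p = 0.00041 by edgeR), and 5 of 5 mice rose. *Aloxe3*, whose enzyme acts on the product of ALOX12B, had 26.2, 50.5, 31.7, 41.4 and 47.8 CPM under basal conditions and 35.3, 70.2, 63.6, 65.9 and 76.7 CPM with cytokines. It overlapped in the same way, through WT mouse 1. It rose in 5 of 5 mice, by a log2 fold change of 0.66 (SE 0.19, adjusted p = 0.00802 by edgeR), but without WT mouse 3 it was 0.58 and missed the threshold on the fold change. Both genes lie on the plus strand of chromosome 11 of GRCm39 and are neighbours, *Aloxe3* from 69016722 to 69039941 and *Alox12b* from 69041472 to 69060618, with 1530 bp between them. In the same build *Ugcg* lies on chromosome 4 (59189035 to 59222845), and *Cyp4f39* (32671694 to 32712396) and *Acer1* (57260490 to 57289126) on chromosome 17. *Sdr9c7*, the third gene of linoleate oxidation, went from 67.8 ± 21.6 to 81.9 ± 20 CPM (SD, n = 5) and was higher in 5 of 5 mice, but did not pass (log2 fold change 0.27, SE 0.22, adjusted p = 0.4 by edgeR).

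*Ugcg* had 76.3, 123, 75.8, 95.8 and 107 CPM in basal WT cells and 111, 168, 150, 165 and 179 CPM with cytokines. WT mouse 1 was again the lowest library with cytokines and was the one that overlapped the basal range. On the log2 scale the fold change was 0.69 (SE 0.14, adjusted p = 0.000366 by edgeR), with a rise in 5 of 5 mice. *Abca12* went from 370 ± 54.5 to 482 ± 47.7 CPM (SD, n = 5). All 5 of its libraries with cytokines lay above all basal libraries, which was true of 1 of the 10 genes and of 10.5% of all genes tested. Its log2 fold change of 0.38 (SE 0.11, adjusted p = 0.00647 by edgeR) did not reach the threshold on the fold change. With the adjusted p alone, 5 of the 10 genes were higher, against 18.8% of all genes.

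*Cyp4f39* had 25, 30.4, 21.3, 30.9 and 28.9 CPM in basal WT cells and 11.7, 13, 13.6, 17.1 and 19.6 CPM with cytokines. Every library with cytokines lay below every basal library, as in 9.99% of all genes tested, and no other gene of the 10 did so. The log2 fold change was -0.86 (SE 0.17, adjusted p = 0.000207 by edgeR). Within a library, the ratio of *Alox12b* to *Cyp4f39* CPM went from 0.856 ± 0.187 to 3.6 ± 0.699 (SD, n = 5). *Acer1* had 15.4, 31.1, 14.7, 26.5 and 21.6 CPM under basal conditions and 10.5, 15.7, 17.9, 17.7 and 16.7 CPM with cytokines. Mouse 3 went up and the other 4 went down. *Acer1* was named by the study on these same libraries, and its values are no independent evidence. Its log2 fold change was -0.48 (SE 0.23, adjusted p = 0.113 by edgeR), and it passed both thresholds without WT mouse 3 (-0.65, adjusted p = 0.0556 by edgeR). *Elovl4* went from 245 ± 60.7 to 192 ± 39.3 CPM, lower in 5 of 5 mice, and did not pass (log2 fold change -0.35, adjusted p = 0.156 by edgeR). *Elovl1* was higher in 4 of 5 mice and passed the threshold on the adjusted p but not on the fold change (log2 fold change 0.24, adjusted p = 0.0697 by edgeR). Its adjusted p by edgeR was over 0.1 without WT mouse 3 (0.255), 4 (0.126) or 5 (0.166) or KO mouse 6 (0.108). With all mice kept it was also over 0.1 in a fit of only the groups compared (0.107). In that fit 4 of the 10 genes were higher by the adjusted p alone, against 16.9% of all genes. *Cers3* had a log2 fold change of 0.08 and was higher in 4 of 5 mice.

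These p-values do not use the pairing of both libraries of a mouse. With the mouse as a block, the same number of genes was called. By the adjusted p alone with the block, a combination chosen after seeing the data, 6 of the 10 were higher, against 21.2% of all genes, and 3 lower, against 19.7%, where 5 were higher and 1 lower without the block, against 18.8% and 18% of all genes. Without the block the lower count was 2 without WT mouse 3 (15.5% of all genes) and 3 without KO mouse 8 (19.7%). With the mouse as a block and all mice kept, *Sdr9c7* (adjusted p = 0.00766 by edgeR), *Elovl4* (0.00177) and *Acer1* (0.00718) passed the threshold on the adjusted p and not the one on the fold change. Over the alternatives that keep all mice, the block included, the adjusted p by edgeR, DESeq2 or limma went up to 0.477 for *Sdr9c7*, 0.198 for *Elovl4* and 0.143 for *Acer1*, and with 1 mouse left out up to 0.64, 0.424 and 0.391 by edgeR.

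**Figure D2:**
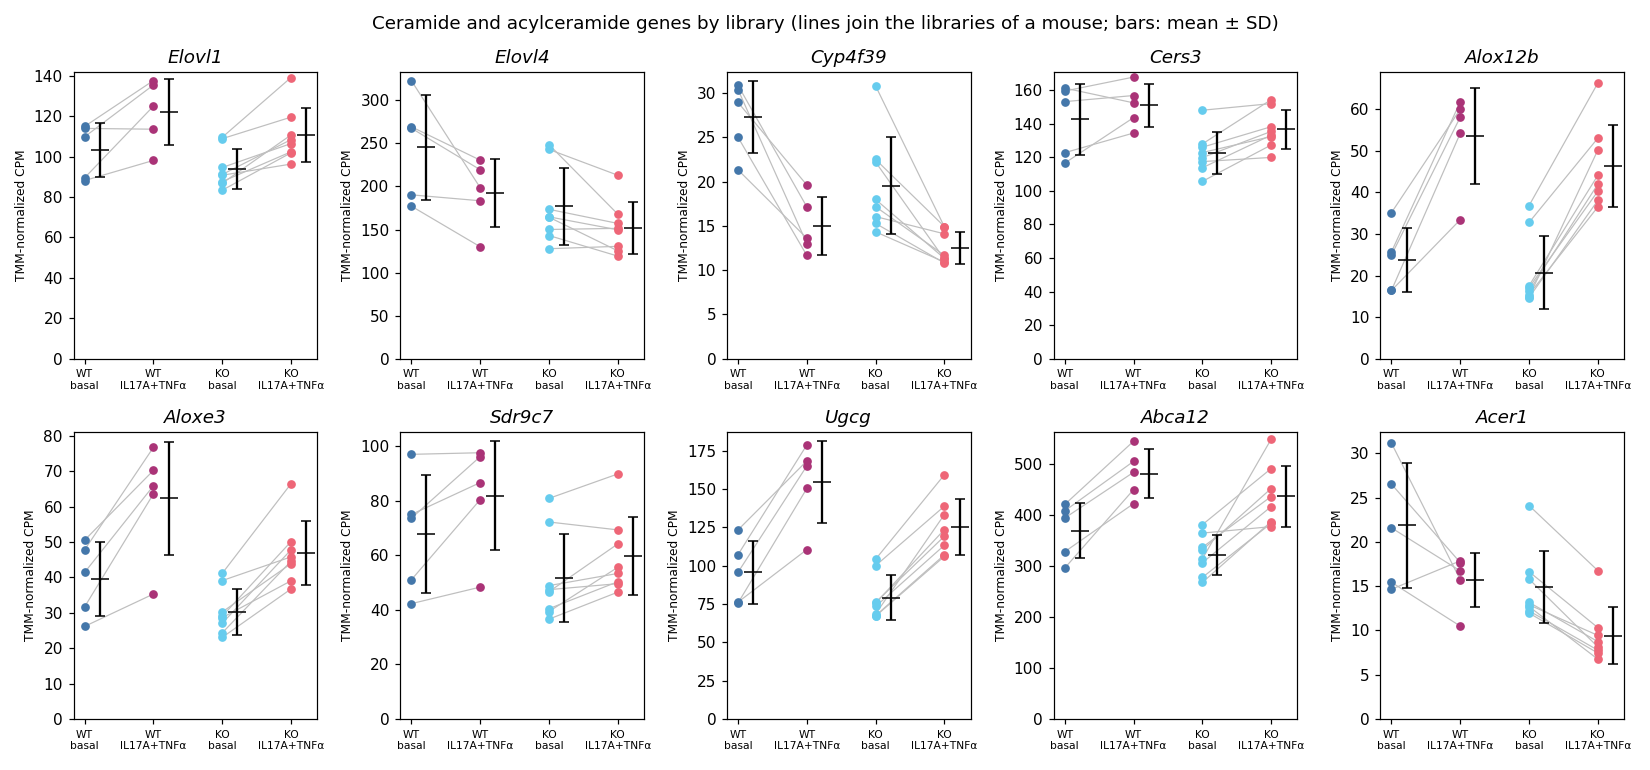
TMM-normalized CPM of the 10 genes in each library by group, with lines joining both libraries of a mouse and bars for the mean ± SD (n = 5 WT, 8 KO). *Alox12b* and *Ugcg* rise and *Cyp4f39* falls in 13 of 13 mice.

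In KO cells, which come from other mice, *Alox12b*, *Aloxe3* and *Ugcg* rose with cytokines and *Cyp4f39* and *Acer1* fell. The comparison gave 3 genes higher, against 6.33% of all genes tested, and 2 lower, against 4.55%. The median log2 fold change of the 10 genes was 0.22, beside 0.00 over all genes. *Alox12b* had a lowest, median and highest value of 14.7, 16.7 and 36.8 CPM under basal conditions and of 36.5, 43 and 66.2 CPM with cytokines (n = 8). KO mice 7 and 8 were high among the basal libraries, and 7 of 8 libraries with cytokines lay above all basal ones. On the log2 scale the fold change was 1.16 (SE 0.20, adjusted p = 2.39e-05 by edgeR). *Aloxe3* went from 23.1, 28.8 and 41.1 CPM to 36.7, 45.2 and 66.5 CPM, a log2 fold change of 0.63 (SE 0.15, adjusted p = 0.00167 by edgeR). *Ugcg* had 67.2, 74.6 and 104 CPM under basal conditions and 106, 121 and 159 CPM with cytokines, with no overlap between the groups. This was so for 1 of the 10 genes in the upward direction, against 6.52% of all genes, and for 0 downward, against 5.24%. Its log2 fold change was 0.66 (SE 0.11, adjusted p = 3.38e-05 by edgeR).

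*Cyp4f39* had 14.3, 17.6 and 30.8 CPM in basal KO cells and 10.8, 11.5 and 14.9 CPM with cytokines. The groups overlapped, and 6 of 8 libraries with cytokines lay below all basal ones. The log2 fold change was -0.64 (SE 0.14, adjusted p = 0.000435 by edgeR), and without KO mouse 7 it was -0.56 and missed the threshold on the fold change. *Acer1* had 12, 13 and 24.1 CPM under basal conditions and 6.76, 8.45 and 16.8 CPM with cytokines. KO mouse 8 was highest in both groups and overlapped the basal range, and 8 of 8 mice went down. Its log2 fold change was -0.66 (SE 0.18, adjusted p = 0.00546 by edgeR). By the adjusted p alone 2 of the 10 genes were lower, against 18.1% of all genes, and 6 higher, against 17.7%. The higher ones included *Elovl1*, *Cers3* and *Abca12*, whose log2 fold changes were 0.23, 0.16 and 0.44. *Cers3* was close to this threshold (adjusted p = 0.0958 by edgeR), and over it without WT mouse 4 (0.108) or KO mouse 1 (0.163), 3 (0.132), 4 (0.151), 5 (0.176), 6 (0.163) or 8 (0.206). With all mice kept it was also over 0.1 with DESeq2 size factors in edgeR (0.108), filterByExpr in edgeR (0.107) or limma (0.109), and over the alternatives that keep all mice it lay between 0.00357 and 0.109 by edgeR, DESeq2 or limma. *Elovl4* was lower in 6 of 8 mice (log2 fold change -0.22, adjusted p = 0.282 by edgeR). *Sdr9c7* was higher in 7 of 8 mice (log2 fold change 0.22, adjusted p = 0.414 by edgeR). With the mouse as a block the same number of genes was called, and by the adjusted p alone 7 were higher, against 20.1% of all genes, and 3 lower, against 19.1%, with *Sdr9c7* at an adjusted p of 0.00648 and *Elovl4* at 0.0136 by edgeR. Over the alternatives that keep all mice these went up to 0.487 and 0.341 by edgeR, DESeq2 or limma, and with 1 mouse left out up to 0.569 and 0.505 by edgeR.

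Whether the cytokine response differed between genotypes was tested as an interaction. By edgeR it called 0 of the 10 genes, against 0.219% of all genes, and 0 of the 10 had an unadjusted p under 0.05, as had 9.13% of all genes. DESeq2 and limma each called 0. The interaction was 0.22 (SE 0.22) for *Cyp4f39* and -0.18 (SE 0.29) for *Acer1*, the values farthest from 0. With 1 mouse left out, *Cyp4f39* lay between 0.13 (without WT mouse 2) and 0.31 (without WT mouse 5) and *Acer1* between -0.34 (without WT mouse 2) and -0.02 (without WT mouse 3). With SEs of this size, a p that misses the threshold does not show that the genotypes responded alike.

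Between the genotypes, all 10 genes had a negative log2 fold change in KO cells, both under basal conditions and with cytokines. Of all genes tested, 49.9% and 52% had one. As the 10 genes vary together within groups, these are not 10 independent results. The 2 comparisons rest on libraries of the same mice. Under basal conditions the values lay between -0.55 (*Acer1*) and -0.13 (*Elovl1*), with a median of -0.33 beside 0.00 over all genes. The median was -0.20 without WT mouse 2 and -0.43 without WT mouse 1, the ends of its range with 1 mouse left out. *Alox12b* (-0.20) was -0.01 without WT mouse 2, -0.31 without WT mouse 1, -0.30 without WT mouse 3, -0.32 without KO mouse 7 and -0.37 without KO mouse 8. None was called lower (0 of 10, against 1.07% of all genes; DESeq2 and limma each called 0), and 7 of 10 had an unadjusted p under 0.05, as had 22.4% of all genes. By the adjusted p alone 4 of the 10 were lower, against 6.06% of all genes. These were *Acer1*, *Cyp4f39*, *Elovl4* and *Cers3*. This count depended on single mice. It was 0 without WT mouse 2 (4.04% of all genes) or 4 (4.33%). The count was 1 without WT mouse 5 (3.87%) or KO mouse 1 (4.49%), 2 (4.69%), 3 (4.99%) or 5 (4.75%). It was 2 without KO mouse 4 (6.7%) or 6 (5.69%) and 4 without KO mouse 7 (5.97%). It was 5 without WT mouse 3 (5.18%) and 7 without WT mouse 1 (8.86%) or KO mouse 8 (7.67%). No gene of the 10 separated the genotypes without overlap (0 of 10, against 1.12% of all genes).

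*Cyp4f39* had a lowest, median and highest value of 21.3, 28.9 and 30.9 CPM in basal WT and 14.3, 17.6 and 30.8 CPM in basal KO cells. KO mice 3, 7 and 8 lay within the WT range, mouse 7 at its upper end, and the other 5 of 8 KO libraries lay below all WT libraries. On the log2 scale the fold change was -0.48 (SE 0.15, adjusted p = 0.0413 by edgeR), and without KO mouse 7 it was -0.61 and passed both thresholds (adjusted p = 0.00346 by edgeR). *Elovl4* had 177, 268 and 323 CPM in WT and 128, 165 and 249 CPM in KO cells. KO mice 7 and 8 lay within the WT range, and the other 6 KO libraries lay below all WT libraries. Its log2 fold change was -0.47 (SE 0.16, adjusted p = 0.0677 by edgeR). *Acer1* had 14.7, 21.6 and 31.1 CPM in WT and 12, 13 and 24.1 CPM in KO cells, where 5 of 8 libraries lay below the whole WT range, a log2 fold change of -0.55 (SE 0.20, adjusted p = 0.0861 by edgeR). The study named *Acer1* on these basal libraries too. It passed both thresholds without WT mouse 1 (-0.66, adjusted p = 0.0259 by edgeR), WT mouse 3 (-0.66, 0.0512) or KO mouse 8 (-0.69, 0.00437). Its adjusted p by edgeR was over 0.1 without WT mouse 2 (0.33, at a log2 fold change of -0.39), 4 (0.23) or 5 (0.153) or KO mouse 1 (0.14), 2 (0.152), 3 (0.114), 4 (0.122), 5 (0.151) or 6 (0.133). The highest adjusted p by edgeR with 1 mouse left out was 0.259 for *Elovl4* and 0.273 for *Cers3*, both without WT mouse 2, and 0.123 for *Cyp4f39*, without WT mouse 4. *Cers3* had a log2 fold change of -0.22 (SE 0.08, adjusted p = 0.0833 by edgeR).

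With cytokines the log2 fold changes between genotypes lay between -0.73 (*Acer1*) and -0.14 (*Elovl1*), with a median of -0.28 beside -0.01 over all genes, which lay between -0.37 (without WT mouse 1) and -0.20 (without WT mouse 5) with 1 mouse left out. *Acer1* was the one gene called lower (1 of 10, against 0.556% of all genes), and 0 of 10 separated the genotypes, against 0.432%. It had 10.5, 15.7, 17.9, 17.7 and 16.7 CPM in WT mice 1 to 5 and a lowest, median and highest value of 6.76, 8.45 and 16.8 CPM in KO cells. KO mouse 8 made the groups overlap, and the other 7 of 8 KO libraries lay below all WT libraries. The log2 fold change was -0.73 (SE 0.20, adjusted p = 0.0696 by edgeR). *Acer1* was named by the study on these libraries, so this is not independent evidence. This call depended on which mice were in the fit. The adjusted p by edgeR was over 0.1 without WT mouse 2 (0.124), 3 (0.179), 4 (0.189) or 5 (0.163), and without KO mouse 1 (0.131), 2 (0.136), 3 (0.13), 4 (0.101), 5 (0.138) or 6 (0.133), and it was kept without WT mouse 1, KO mouse 7 or KO mouse 8. Over the other alternatives that refit the genes it lay between 0.0398 and 0.0731. *Sdr9c7* had 48.4, 97.6, 80.4, 86.7 and 96.2 CPM in WT mice 1 to 5 and 46.5, 54.5 and 89.8 CPM in KO cells, a log2 fold change of -0.45 (SE 0.20, adjusted p = 0.275 by edgeR), and it passed without WT mouse 1 (-0.59, adjusted p = 0.045 by edgeR).

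**Figure D3:**
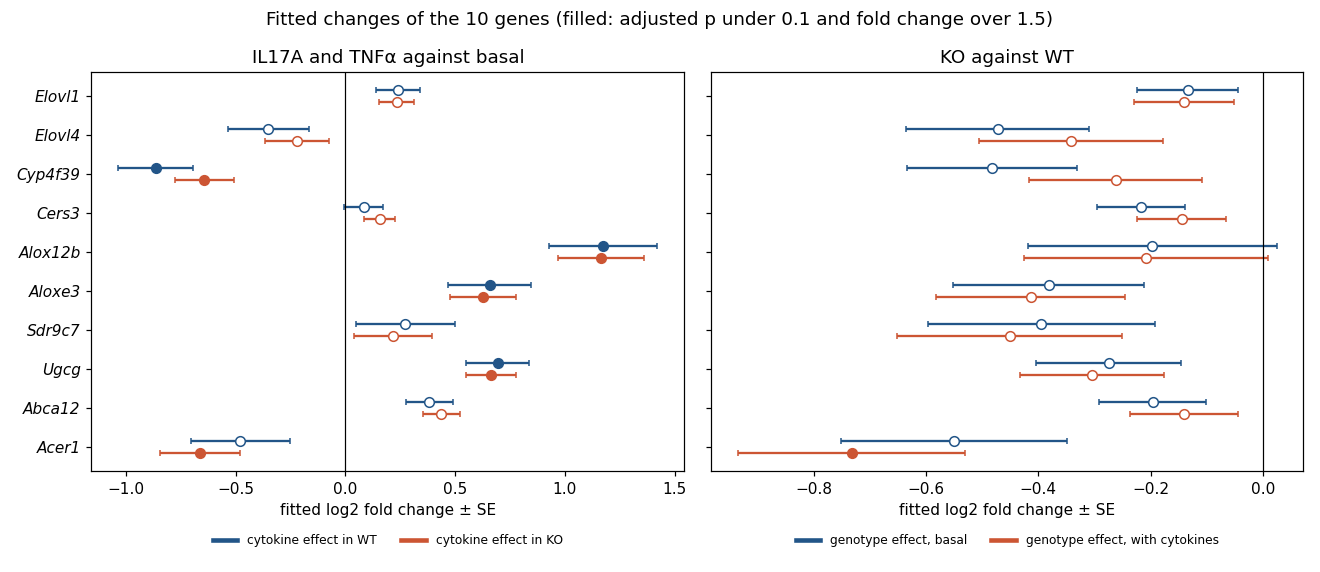
Fitted log2 fold change ± SE of the 10 genes for the cytokines against basal (left) and for KO against WT (right), with filled points where the adjusted p was under 0.1 and the fold change over 1.5. On the right all points lie below 0, and *Acer1* with cytokines (-0.73) is the filled one.

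Markers of differentiated keratinocytes differed between the genotypes beside these genes. Under basal conditions 3 of 7 suprabasal markers were called lower in KO cells, namely *Krt1*, *Dsg1a* and *Dsc1*, against 1.07% of all genes. Beside 49.9% of all genes, 7 of these 7 markers had a negative log2 fold change. Their summed level was 3217 to 5542 CPM in WT libraries (median 4546) and 2459 to 4715 CPM in KO libraries (median 2776). With cytokines 6 of 7 were called lower, against 0.556% of all genes, and the sum was 755 to 1287 CPM in WT (median 1235) and 642 to 1151 CPM in KO libraries (median 741). By group means, *Krt1* was the most abundant suprabasal marker in both basal groups and *Sbsn* in both groups with cytokines, and none of the 7 was at 0. Of 9 late markers measured, 1 (*Hrnr*) was called lower under basal conditions and 3 (*Lor*, *Flg2* and *Hrnr*) with cytokines, beside the same shares of all genes. Their sum had a median of 1464 CPM in WT (1024 to 2121) and 943 CPM in KO libraries (874 to 2011) under basal conditions, and of 866 (435 to 930) and 459 CPM (366 to 843) with cytokines. *Lor* had the highest mean of the late markers in both basal groups and *Cdsn* in both groups with cytokines, and none was at 0. The 7 basal keratinocyte markers, led by *Krt5*, had a median sum of 43141 CPM in WT and 42395 CPM in KO libraries without cytokines and of 34256 and 34443 CPM with them, and their median log2 fold changes between genotypes were -0.01 and 0.06. With 1 mouse left out, 2 to 4 suprabasal markers were called lower under basal conditions, the lowest count without WT mouse 2 (0.841% of all genes), where *Dsc1* was lost (adjusted p = 0.12 by edgeR). With cytokines it was 6 without WT mouse 1, KO mouse 7 or KO mouse 8, 5 without KO mouse 5, 3 without WT mouse 3 (0.189% of all genes) and 4 without any other mouse. *Krt1*, *Dsg1a* and *Dsc1* were called with cytokines in 13 of 13 such fits, *Krt10* in 12, *Calml3* in 4 and *Krtdap* in 3. The late markers depended more on single mice. Under basal conditions 3 were called lower without WT mouse 1 or KO mouse 8, 2 without KO mouse 7, 1 without WT mouse 3 and 0 without any other mouse. With cytokines 7 were called lower without WT mouse 1 (1.77% of all genes) or KO mouse 8 (1.4%), 3 without KO mouse 7, 1 without KO mouse 4 and 0 without any other mouse. In bulk RNA, fewer cells of a type and less RNA per cell cannot be told apart, and the part of differentiation in the lower levels of the 10 genes was not tested.

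With cytokines most of these markers fell while 3 of the 10 genes rose. In WT cells 6 of 7 suprabasal and 7 of 9 late markers fell, against 5.26% of all genes, and in KO cells 6 of 7 and 8 of 9 fell, against 4.55%. The oxidation genes *Alox12b* and *Aloxe3* and the glucosylation gene *Ugcg* rose in both genotypes, and the oxidation gene *Sdr9c7* was not called in either. *Krt1* went from 1522 ± 350 to 75 ± 19.1 CPM in WT cells (SD, n = 5).

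Within groups, the 10 genes varied together from library to library. After each group's mean was subtracted from log2 CPM, the correlation over 26 libraries was between 0.61 and 0.97 in the 45 pairs of genes, with a median of 0.84. This is a description without a p, as both libraries of a mouse share an animal. The mean of the 10 genes, each scaled by its SD, was lowest in WT mouse 1 with cytokines (-1.66) and highest in KO mouse 8 with cytokines (1.67). KO mouse 7 (1.57) and KO mouse 8 (1.37) were the highest libraries under basal conditions, and WT mice 1 (-1.26) and 3 (-1.30) the lowest. By Pearson r, *Elovl4* (0.98, Spearman rho 0.96) and *Ugcg* (0.97, rho 0.97) followed the mean of the other 9 genes most closely, and *Cyp4f39* (0.79, rho 0.76) and *Abca12* (0.79, rho 0.79) least. Without KO mouse 8 and WT mouse 1, r was 0.97 for *Elovl4* and 0.95 for *Ugcg*, and the lowest were *Acer1* (0.78) and *Cyp4f39* (0.79), with *Abca12* at 0.83.

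The genes outside the lists most like the mean of the 10, by Pearson r over 26 libraries, were *Dsg1b* (0.97, rho 0.97), *Spink5* (0.96, rho 0.96), *Lipm* (0.96, rho 0.96), *Prdm1* (0.96, rho 0.96) and *Rdh12* (0.95, rho 0.95). Without the mice farthest from the median, KO mouse 8 and WT mouse 1, r lay between 0.93 and 0.97 for these genes. The mean of the late keratinocyte markers had an r of 0.95 to the 10 genes (rho 0.95; 0.93 without both mice), and the suprabasal markers 0.90 (rho 0.89; 0.83 without both mice). For the basal keratinocyte markers r was -0.31 (rho -0.25; -0.41 without both mice). Markers of some other cell types also varied with the 10 genes. For melanocytes r was 0.72 (rho 0.67; 0.51 without both mice), for the 2 immune markers tested 0.61 (rho 0.67; 0.49), for fibroblasts 0.54 (rho 0.52; 0.45) and for the 2 endothelial markers tested -0.42 (rho -0.47; -0.39). It was -0.08 for Merkel cells (rho -0.09; 0.02) and 0.03 for the 2 sebocyte markers tested (rho 0.00; 0.11).

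**Figure D4:**
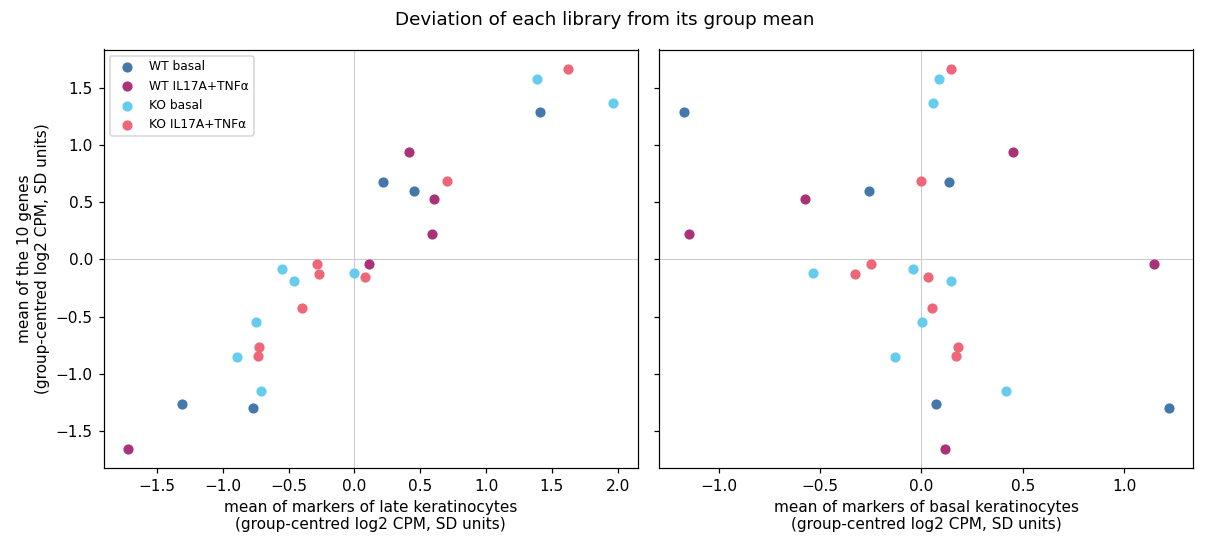
Mean of the 10 genes (y) against the mean of late (left) or basal (right) keratinocyte markers (x), as group-centred log2 CPM in SD units, with 1 point for each of 26 libraries coloured by group. The points follow a rising line for late markers (r = 0.95) and not for basal markers (r = -0.31).

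Markers of most other cell types were near 0. The defining marker of Langerhans cells, *Cd207*, was at 0 in all libraries, as was the endothelial *Emcn*, and the summed level of 7 fibroblast markers was at most 8.24 CPM in any library. The 7 immune markers summed to a median of 4.18 CPM in basal WT and 8.45 CPM in basal KO libraries, mostly *Lyz2*, which had medians of 3.57 and 8.12 CPM and was not called (adjusted p = 0.182 by edgeR). The other immune marker tested, *H2-Ab1*, was called lower in basal KO cells (-1.75, SE 0.59, adjusted p = 0.06 by edgeR), at a mean normalized count of 12.3 and with overlap between the groups. Its adjusted p by edgeR was over 0.1 without WT mouse 2 (0.107) or 5 (0.16) or KO mouse 1 (0.107) or 2 (0.107), and *Lyz2* was called higher without WT mouse 4 (0.0621). Sebocyte markers summed to at most 1.54 CPM. The endothelial markers had a median sum of 2.08 CPM in basal WT and 3.07 CPM in basal KO libraries, where *Pecam1* was called higher. With cytokines their median sums were 5 and 5.33 CPM, and 2 of 2 tested (*Pecam1* and *Kdr*) rose in both genotypes, against 8.65% of all genes in WT and 6.33% in KO cells. Of those not tested, *Cdh5* was at 0 except in KO cells with cytokines (mean 0.0356 CPM). *Tek* had means of 0.179 CPM basal and 0.125 CPM with cytokines in WT cells, and of 0.122 and 0.223 CPM in KO cells. In WT cells *Kdr* was lost without WT mouse 4 (adjusted p = 0.106 by edgeR) or 5 (0.197), and in KO cells *Pecam1* missed the fold change without KO mouse 1 (0.55 on the log2 scale), 6 (0.56) or 7 (0.53) and both thresholds without KO mouse 3 (0.49). Markers of melanocytes were present, with a median sum of 578 CPM for WT and 562 CPM for KO libraries under basal conditions and 473 and 340 CPM with cytokines, led by *Tyrp1*. In WT cells 2 of 7 fell with cytokines (5.26% of all genes), and in KO cells 4 of 7 (4.55%). Of 6 fibroblast markers tested, 1 fell with cytokines in each genotype, as did 1 of 7 basal keratinocyte markers. The fibroblast count was 2 in WT cells without KO mouse 1, and in KO cells 0 without KO mouse 3, 4, 5 or 8 and 2 without KO mouse 7. Between genotypes 0 of 6 fibroblast markers were called, but 5 of 6 had a negative log2 fold change under basal conditions (median -0.55) and 4 of 6 with cytokines (median -0.39). For melanocytes 0 of 7 were called between genotypes, and 6 of 7 were negative with cytokines (median -0.38). There *Pmel* was called lower without WT mouse 1 (-0.67, adjusted p = 0.000329 by edgeR), KO mouse 7 (-0.59, 0.024) or KO mouse 8 (-0.63, 0.00135). Merkel cell markers, led by *Krt8*, had medians of 3.64 CPM in basal WT and 11.7 CPM in basal KO libraries, and 2 of 4 (*Krt8* and *Krt18*) were called higher in KO cells, against 1.61% of all genes. With cytokines these medians were 11.9 CPM in WT and 19.5 CPM in KO libraries, and 1 of 4 (*Krt18*) rose in both genotypes. The remaining markers of this list, *Atoh1* and *Krt20*, were not called in these comparisons. In KO cells 2 of 4 had a negative log2 fold change with cytokines. *Krt8* alone had a mean of 8.62 CPM in the basal KO group, beside 12.7 CPM for the sum. For basal WT it had 3.24 of a summed 5.21 CPM. More Merkel cells in KO cultures are not shown by these calls. *Krt8* lost its call between genotypes without WT mouse 4 (adjusted p = 0.107 by edgeR) or 5 (0.1), and with cytokines in WT cells it passed without WT mouse 1 (0.0056), KO mouse 2 (0.0952) or KO mouse 8 (0.0899). The part of these cells in the results was not tested.

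Other genes of the pathway, listed by function, were tested in the same fit. Among genes of acylceramide assembly and the lipid envelope, 4 of 10 tested rose with cytokines in WT cells, against 8.65% of all genes, and 4 of 10 in KO cells, against 6.33%. The median of the 10 log2 fold changes was 0.35 in WT and 0.40 in KO cells. *Ephx3*, an epoxide hydrolase of linoleate oxidation, rose from 8.71 ± 1.37 to 19.4 ± 3.86 CPM in WT cells (SD, n = 5; adjusted p = 4.59e-06 by edgeR), and *Pnpla1*, the transacylase that makes acylceramides, from 46.5 ± 15 to 86 ± 21.3 CPM (adjusted p = 0.00167 by edgeR). The lipase gene *Lipn* had log2 fold changes of 1.38 in WT and 1.39 in KO cells. Between genotypes 2 were called lower in each condition (1.07% of all genes under basal conditions and 0.556% with cytokines). All 10 had a negative log2 fold change (49.9% and 52% of all genes), with medians of -0.33 in both conditions. *Ces2f* and the transglutaminase gene *Tgm3* were called under basal conditions (-0.74 and -0.60) and *Tgm5* and *Tgm3* with cytokines (-0.65 and -0.59). Under basal conditions *Tgm3* missed the fold change without WT mouse 3 (-0.58) or 4 (-0.58) or KO mouse 1 (-0.57), 2 (-0.55) or 7 (-0.57), and *Ces2f* was called in 13 of 13 fits with 1 mouse left out. With cytokines the number called was 3 without WT mouse 1 or KO mouse 8, 2 without KO mouse 7, 1 without WT mouse 2 or 5 or KO mouse 3, and 0 without any other mouse.

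Of 14 genes of de novo ceramide synthesis tested, 2 rose and 1 fell in WT cells with cytokines (8.65% and 5.26% of all genes), and 2 rose and 2 fell in KO cells (6.33% and 4.55%). *Cers2*, a synthase of very long chain ceramides outside the epidermal omega-hydroxylated class, rose in WT cells from 13.4 ± 5.75 to 29.5 ± 2.92 CPM (SD, n = 5), *Degs2* rose from 16.9 ± 5 to 36.1 ± 11.4 CPM, and *Sptlc3*, a subunit of serine palmitoyltransferase, fell from 19.3 ± 3.43 to 11.2 ± 2.24 CPM. Between genotypes *Cers2* was higher in basal KO cells (log2 fold change 0.78, SE 0.17, adjusted p = 0.00313 by edgeR), and *Sptlc3* was lower with cytokines (-0.70, SE 0.18, adjusted p = 0.0604 by edgeR). The call of *Cers2* was kept in 13 of 13 fits with 1 mouse left out. The adjusted p of *Sptlc3* by edgeR was over 0.1 without WT mouse 2 (0.127), 3 (0.183), 4 (0.15) or 5 (0.16) or KO mouse 2 (0.127), 3 (0.115), 4 (0.104), 5 (0.13) or 6 (0.118). Of 14 genes of fatty acid elongation and hydroxylation tested, 3 rose and 2 fell in WT and 1 rose and 1 fell in KO cells, beside the same shares of all genes. Between genotypes their median log2 fold change was -0.04 under basal conditions and 0.03 with cytokines. The acyl-CoA synthetase gene *Acsl1* fell from 85.4 ± 14.3 to 23.2 ± 1.39 CPM in WT cells (SD, n = 5; log2 fold change -1.88), while *Acsl3* rose from 58 ± 4.86 to 107 ± 11.8 CPM.

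Among 24 genes of ceramide head groups and turnover tested, 5 rose and 4 fell with cytokines in WT cells (8.65% and 5.26% of all genes), and 3 rose and 4 fell in KO cells (6.33% and 4.55%). The sphingosine phosphate phosphatase gene *Sgpp2* rose from 0.53 ± 0.128 to 7.71 ± 1.12 CPM in WT cells (SD, n = 5; log2 fold change 3.86, SE 0.31), while its relative *Sgpp1* fell from 121 ± 14.7 to 65.2 ± 8.1 CPM (-0.90, SE 0.10). The glucosylceramidase gene *Gba2* rose from 12.3 ± 3.62 to 35.5 ± 9.61 CPM (1.53, SE 0.19). The sphingosine kinase gene *Sphk1* fell from 18.9 ± 2.26 to 8.62 ± 1.93 CPM (-1.13, SE 0.15). Between genotypes 1 of 24, the sphingomyelin synthase gene *Sgms2*, was called higher in basal KO cells, against 1.61% of all genes (2.13 ± 0.569 CPM, n = 8, against 1.14 ± 0.496 CPM, n = 5), and this count was 2 without KO mouse 3 or 6. Of 13 transcription factor genes linked to epidermal lipids, *Grhl3* rose from 52.7 ± 13.7 to 102 ± 22.3 CPM and *Rora* fell from 67.4 ± 18 to 35.1 ± 4.09 CPM in WT cells with cytokines, as both did in KO cells (0.83 and -0.81 on the log2 scale). This was 1 rise and 1 fall of 13 in each genotype, beside 8.65% and 5.26% of all genes in WT and 6.33% and 4.55% in KO cells. In WT cells 2 of 13 rose without WT mouse 1.

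Promoters of 9 of the 10 genes were found in the RefSeq table, in windows of 300 bases around the start, and *Aloxe3* had no entry. They are shown for 2 genes that rose with cytokines and the one that fell in both genotypes, as the 250 bases upstream of the start, with capitals marking CACCC or its reverse complement GGGTG, the core of Kruppel-like factor sites. *Cyp4f39* has no match in its window. Positions are in GRCm38.p6, the build of that table, and differ from the GRCm39 positions of the genes. *Alox12b* is on the plus strand of chr11:69156822-69157071, *Ugcg* on the plus strand of chr4:59189300-59189549 and *Cyp4f39* on the plus strand of chr17:32452473-32452722.
Alox12b: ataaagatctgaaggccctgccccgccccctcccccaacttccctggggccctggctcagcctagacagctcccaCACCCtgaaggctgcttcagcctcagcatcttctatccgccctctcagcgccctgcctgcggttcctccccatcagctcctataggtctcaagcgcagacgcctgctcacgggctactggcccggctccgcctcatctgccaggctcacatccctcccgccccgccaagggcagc
Ugcg: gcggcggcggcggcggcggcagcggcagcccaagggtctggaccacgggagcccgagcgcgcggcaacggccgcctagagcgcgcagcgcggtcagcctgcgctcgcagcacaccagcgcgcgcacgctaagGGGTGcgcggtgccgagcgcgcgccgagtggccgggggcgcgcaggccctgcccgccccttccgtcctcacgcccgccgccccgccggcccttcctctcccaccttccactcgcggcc
Cyp4f39: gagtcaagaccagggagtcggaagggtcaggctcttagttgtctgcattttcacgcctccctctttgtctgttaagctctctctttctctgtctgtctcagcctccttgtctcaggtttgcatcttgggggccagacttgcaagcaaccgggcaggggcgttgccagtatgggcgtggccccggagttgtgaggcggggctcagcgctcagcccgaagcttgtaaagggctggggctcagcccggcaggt
CACCC was found in 6 of 9 genes, and in 59.8% of all genes of the table. TATAAA was found in 1 of 9 (*Sdr9c7*) and in 15.7% of all genes. TGACTCA or TGAGTCA (AP-1), the Grainyhead motif AACCGGTT and the NF-kB motif were in 0 of the 9, and in 5.95%, 0.174% and 2.72% of all genes. A match is a description of letters in this window and not a binding site.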

How the data were processed

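The authors aligned strand-specific paired reads to mm39 with STAR 2.7.10b, counted them per gene with featureCounts 2.0.6 and deposited whole-number counts without normalization. Whether counting used strand was not given in the sources used here. Antisense genes overlap 14.4% of *Acer1* and 6.35% of *Sdr9c7* exons, and the partner of *Acer1* had a mean of 0.433 CPM. The authors also deposited log2 normalized counts, used here for 1 alternative. The 16893 of 56738 genes whose normalized count averaged over 10 were fitted with edgeR 4.0.16 (R 4.3.3), using TMM factors, a quasi-likelihood model of 4 groups and Benjamini-Hochberg adjustment over all genes tested. Alternatives used DESeq2 1.42.0 and limma 3.58.1, and sex, which the labels do not give, was added as a covariate after seeing the data. It was read from the libraries, where 2 of 5 WT and 4 of 8 KO mice had a female pattern. Both libraries were alike in this in 13 of 13 mice. Both libraries of a number come from 1 mouse, and their deviations from group means correlated between 0.00051 and 0.25 (median 0.11). For the mean of the 10 genes in SD units, the deviations had the same sign in both libraries of each mouse. In WT mouse 1 they were -1.26 basal and -1.66 with cytokines, in KO mouse 8 1.37 and 1.67, and in WT mouse 3 -1.30 and -0.04. Libraries of a group differed beyond sampling noise (lowest chi-square per degree of freedom 7.42). Log2 CPM used a prior count of 1. Exon lengths and positions are from GRCm39 in a later GENCODE release (vM39) than the authors counted with (vM31), so levels per kb and their order use lengths that may differ from those counted. The fit was tested on simulated data. Named genes were all 10 genes and some genes of the pathway lists. The latter came from those called whose normalized count averaged over 100, at most 3 rises and 3 falls a comparison. Not all of these are described above. *Cers4*, *Elovl6*, *Acsl4*, *Hacd1*, *Smpd1*, *Cerk*, *Psap* and *Sult2b1* also met the rule. Markers and *Pla2g4d* were named as well, and single other markers after their values were seen. The members and lists were chosen with earlier results of these data known.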

Additional observations from a re-analysis of the deposited data

Results flagged for a closer look

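In 6 of 40 combinations of gene and group, 1 library stood far from the others on the log2 CPM scale, where chance gives about 1 in 20. In WT cells with cytokines the library of WT mouse 1 was the low one for *Alox12b* (33.4 CPM), *Aloxe3* (35.3 CPM), *Sdr9c7* (48.4 CPM) and *Acer1* (10.5 CPM). In KO cells the library of KO mouse 8 was the high one for *Acer1*, under basal conditions (24.1 CPM) and with cytokines (16.8 CPM). As the genes vary together within groups, these are not independent. The cause was not tested.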

How the results depend on the processing

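Fits with DESeq2, DESeq2 size factors, no filter, filterByExpr, limma or sex as a covariate (added after seeing the data) gave the same numbers of genes called, namely 4 and 5 for the cytokines in WT and KO cells, 0 and 1 for the genotype and 0 for the interaction. Fits of only the groups compared, which give no interaction, gave the same 4, 5, 0 and 1. The replicate block of the mouse, possible for the cytokine effects and the interaction, gave 4, 5 and 0 and changed no call. By the adjusted p alone with the block, a combination chosen after seeing the data, 9, 10 and 0 passed. Over all 16893 genes tested 6905, 6637 and 473 did so. The interaction over all genes called 80 with the block in place of 37. With the adjusted p alone and no block, 8 genes were called for the cytokines in KO cells. Of these, 6 were higher and 2 lower, against 17.7% and 18.1% of all genes. For the basal genotype effect 4 were called, all lower, against 6.06%. This count was 2 with limma (6.26% of all genes) and 1 in a fit of only the groups compared (4.21%). With each mouse left out it was between 0 and 7, beside 3.87% to 8.86%. These counts by the adjusted p alone were also chosen after seeing the data. With an adjusted p under 0.05, 0 were called between genotypes with cytokines. With each mouse left out, the counts lay between 4 and 4, 4 and 5, 0 and 1, 0 and 2, and 0 and 0. All 10 genes had a negative log2 fold change in KO cells in both genotype comparisons under every left-out mouse. The genes vary together and the fits share most mice, so these are not independent results. The sizes moved, for basal *Alox12b* from -0.37 to -0.01. Over all genes, the number called between genotypes with cytokines (119) was 558 without WT mouse 1 and 291 without KO mouse 8. It was 127 without KO mouse 7 and 44 to 82 without any other mouse. Under basal conditions the number (453) lay between 341 (without WT mouse 2) and 824 (without WT mouse 1). For the interaction (37) it lay between 18 (without WT mouse 4) and 92 (without WT mouse 1). The share of all genes beside a count moves with these numbers. Leaving out mice for the marker and pathway lists and *Pla2g4d* was chosen after seeing the data. The sign of interactions near 0 changed. *Elovl1* was 0.0038 without a filter, *Alox12b* 0.0292 with limma and 0.0255 with the block. Without single mice, the interactions ran from -0.0684 to 0.0504 (*Elovl1*), -0.151 to 0.101 (*Alox12b*), -0.0890 to 0.0458 (*Aloxe3*), -0.149 to 0.0241 (*Sdr9c7*), -0.106 to 0.0333 (*Ugcg*), and, without a change of sign, 0.13 to 0.31 (*Cyp4f39*) and -0.34 to -0.02 (*Acer1*). The cause of these changes was not tested. The longest transcript in place of all exons moved the level per length of *Abca12*, *Ugcg* and *Aloxe3*.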
